A study of Mus musculus with 32 samples.

Results

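The step from the 8-cell embryo to the inner cell mass (ICM) of the blastocyst was read from 2 columns of a mouse RNA sequencing series. Every gene with 5 FPKM or more in either column was taken, which gave 6611 of 24013 genes. FPKM is the number of fragments per kilobase of transcript, scaled to library size. Of the 6611 genes, 5347 reached 5 FPKM at the 8-cell stage, 5659 in the ICM and 4395 in both. The 8-cell column stood for 2 samples and the ICM column for 3, and each column gave 1 value per gene. All came from C57BL/6N females that were superovulated with hormone injections and mated to DBA/2N males. The zona pellucida was removed, the ICM was freed from the blastocyst by immunosurgery (lysis of the outer cells with antiserum and complement), and polyadenylated RNA was amplified by a modified Smart-seq2 protocol. Knockdown control embryos of the same cross served as a second source, with 4 libraries of 8-cell embryos and 3 of whole blastocysts. Their protocol describes siRNA injection and culture in CZB medium with glutamine, and does not say what the controls received. MII oocytes, zygotes, early 2-cell, 2-cell and 4-cell embryos and R1 embryonic stem cells (mESC), with 1 column each, are given where they place a gene.

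Between these stages the embryo compacts, forms polarised outer cells and a fluid-filled cavity, and divides its cells into trophectoderm and ICM. The ICM then holds cells that become epiblast, which carry the pluripotency factors Nanog and Sox2, and cells that become primitive endoderm, which depend on FGF signalling and lay down basement membrane. Energy metabolism is known to shift in the same window, from pyruvate use towards glucose uptake and greater respiration.

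With 1 value per stage no test was possible and no value had an error. A gene is called higher or lower where the 2 columns differed by at least 1 in log2(FPKM + 1), ICM minus 8-cell, which is about a 2-fold change for a well-expressed gene and less than the true fold for a gene near 0. Read totals were not given, so the depth is unknown. FPKM summed to 335642 in the 8-cell column and 360432 in the ICM column, and 8652 and 9290 genes reached 1 FPKM. Between single 8-cell control libraries, 7.8% to 12.2% of genes with 5 FPKM or more differed by at least 1. Between blastocyst control libraries this was 11.5% for replicates 1 and 3 and 27% and 33.5% for the pairs with replicate 2, which thus stood apart. Replicate 2 also listed the ribosomal precursor Rn45s at 0 FPKM, against 37959 and 38111 in replicates 1 and 3. The 8-cell and ICM columns listed Rn45s at 0 as well, while the 8-cell control libraries had 24968 to 29618 FPKM. What this difference does to levels set side by side was not tested. The 8-cell column and the 8-cell control libraries differed by at least 1 in 37.3% to 42.7% of genes; injection, culture and the separate processing of the tables cannot be told apart. The labels name no separate litters or cultures, so the spread between libraries may be technical. Reads of near-identical copies may be shared with a gene, which makes its value uncertain; of the genes named, this touches Ovca2, Actg1, Atp1b3, Atp6v1f, Atp6v1g1, Dppa3, Dppa4, Fabp5, Fau, Fdft1, Grb2, Ldhb, Psme2, Sfn, Slc5a6, Tdpoz5, Ywhaz and those marked where they appear. The RNA of all cells was pooled, so fewer cells of a type and less RNA per cell cannot be told apart.

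The ICM was higher by at least 1 for 1837 of 6611 genes (27.8%) and lower for 1447 (21.9%), while 3327 genes (50.3%) lay within 1. The median difference over all 6611 genes was 0.10, with quartiles of -0.85 and 1.15. After scaling the ICM column so that the median ratio was 1, 1821 genes were higher and 1455 lower, and the median was 0.09. Scaling to the upper quartile moved the median of all genes to -0.03 and gave 1686 higher and 1614 lower genes, so values below are read beside a shift of that size. Large differences were more often upward: 318 genes were higher by 3 or more and 201 lower by 3 or more. The 5 FPKM limit fell between close values. Ovca2 (5.00 FPKM in the ICM) and Chic1 (5.00 at the 8-cell stage) lay just inside it, while Cep85 and Ankrd13a (both 5.00 at the 8-cell stage after rounding, 4.64 and 3.33 in the ICM) lay just outside.

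**Figure D1:**
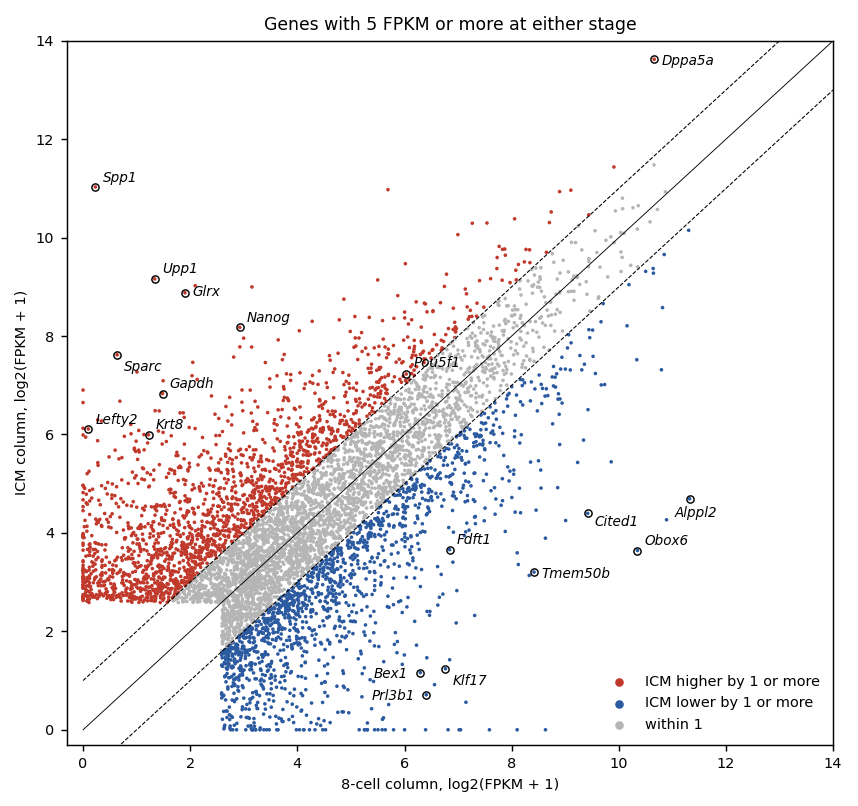
Level in the ICM column against level in the 8-cell column for the 6611 genes, both as log2(FPKM + 1), 1 point per gene and 1 deposited value per axis. Solid line, equal levels; dashed lines, a difference of 1. The 1837 genes higher in the ICM (red) and the 1447 lower (blue) flank the grey band, and Spp1 and Alppl2 lie far from it.

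Spp1, which encodes the secreted phosphoprotein osteopontin, showed the largest difference. It was listed at 0.17 FPKM in 8-cell embryos and 2088 FPKM in the ICM, a difference of 10.80. No earlier stage exceeded 0.97 FPKM, and mESC had 650 FPKM. All 4 8-cell control libraries listed Spp1 at 0, whereas the blastocyst control libraries had 108, 122 and 47.2 FPKM. Upp1, uridine phosphorylase of pyrimidine salvage, went from 1.53 to 571 FPKM (7.82). Upp1 was at 1.18, 1.79, 0.92 and 0.66 FPKM in the 8-cell controls and at 39.6, 46.3 and 21.2 FPKM in the blastocyst controls, so these groups did not overlap either. Sparc, a secreted protein that binds collagen, had 0.55 FPKM at the 8-cell stage and 195 FPKM in the ICM (6.98).

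The next genes by size belonged to several families. Glrx, a glutaredoxin, went from 2.74 to 470 FPKM (6.98), and Fabp5, a fatty acid carrier, from 3.26 to 519 FPKM (6.93). Both were also high in MII oocytes, at 172 and 123 FPKM, and low at the 4-cell stage, at 5.45 and 3.27 FPKM. Fam25c (0 to 119 FPKM), the water channel Aqp8 (0 to 99.3 FPKM) and the connexin Gjb5 (1.01 to 153 FPKM) differed by 6.90, 6.65 and 6.26. The lens gamma-crystallins Crygc (0 to 68.9 FPKM) and Crygd (0.27 to 76.3 FPKM) differed by 6.13 and 5.93. Outside these columns neither crystallin was above 0.18 FPKM at any stage, and in the control blastocysts they reached at most 1.59 and 1.97 FPKM. The soluble epoxide hydrolase Ephx2 differed by 6.02, the Nodal antagonist Lefty2 by 6.01, the cationic amino acid transporter Slc7a3 by 5.90 and the aldo-keto reductase Akr1c21 by 5.60.

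Nolc1, a nucleolar phosphoprotein, also met the rule, with 0 FPKM at the 8-cell stage and 62.6 FPKM in the ICM (5.99). Its 8-cell value is only a listed 0. The 4-cell column gave Nolc1 213 FPKM, and the 8-cell controls gave it 182, 147, 130 and 214 FPKM, above the 14.7, 23.2 and 13.4 FPKM of the blastocyst controls. In all, 51 of the 6611 genes were listed at 0 in the 8-cell column and 40 in the ICM column, of which 24 were small RNA genes such as snoRNAs.

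Alppl2, an alkaline phosphatase, was the most abundant gene of the 8-cell column and had the second largest downward difference among named genes. It had 446 FPKM at the 2-cell stage, 2350 at the 4-cell stage and 2557 at the 8-cell stage, then 24.9 FPKM in the ICM (-6.63). The 8-cell controls had 3975, 3791, 3164 and 3228 FPKM of Alppl2 and the blastocyst controls 29.3, 158 and 187 FPKM. Obox6, a homeobox gene of a family expressed in oocytes and early embryos, had 1302 and 11.5 FPKM (-6.70); it has near-identical copies, so its reads may be shared with them. Klf17, a Krüppel-like transcription factor, was highest in MII oocytes at 543 FPKM, still at 108 FPKM in 8-cell embryos, and at 1.36 FPKM in the ICM (-5.52). Klf17 was at 20.7 to 23.9 FPKM in the 8-cell controls and at 0.21 to 0.48 FPKM in the blastocyst controls, with no overlap.

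The other genes of this group were mostly low in MII oocytes and high from the 2-cell or 4-cell stage onwards. Cited1, a transcriptional coactivator, went from 683 to 20.1 FPKM (-5.02). Tmem50b, a membrane protein, went from 341 to 8.21 FPKM (-5.21), after 21.1 FPKM in MII oocytes. Carriers of vitamins were 2 of the 15: Slc5a6, for biotin and pantothenate, with 320 and 7.79 FPKM (-5.19), and Slc19a3, for thiamine, with 47.8 and 0.18 FPKM (-5.36). Secreted peptides were 3 more: Esp24 (54.5 to 0 FPKM), the placental lactogen Prl3b1 (83.8 to 0.64 FPKM) and the neuropeptide precursor Hcrt (47.1 to 0.16 FPKM). Sp110, a nuclear body protein with near-identical copies, was at 99.1 FPKM in MII oocytes and differed by -5.64. The zinc finger gene Zscan5b differed by -5.42, Rusc1 by -5.17 and the class Ib histocompatibility gene H2-Q9 by -5.15. H2-Q9 varied widely in the 8-cell controls, at 0.00018, 4.33, 0.049 and 6.75 FPKM. It was at 3.1e-07, 0 and 0 FPKM in the blastocyst controls, so its value is uncertain. Bex1 went from 77.6 to 1.24 FPKM (-5.13), but the control libraries lay the other way round, at 0.28, 0.16, 0 and 0 FPKM in 8-cell embryos and 17.9, 16.5 and 3.61 FPKM in blastocysts.

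**Figure D2:**
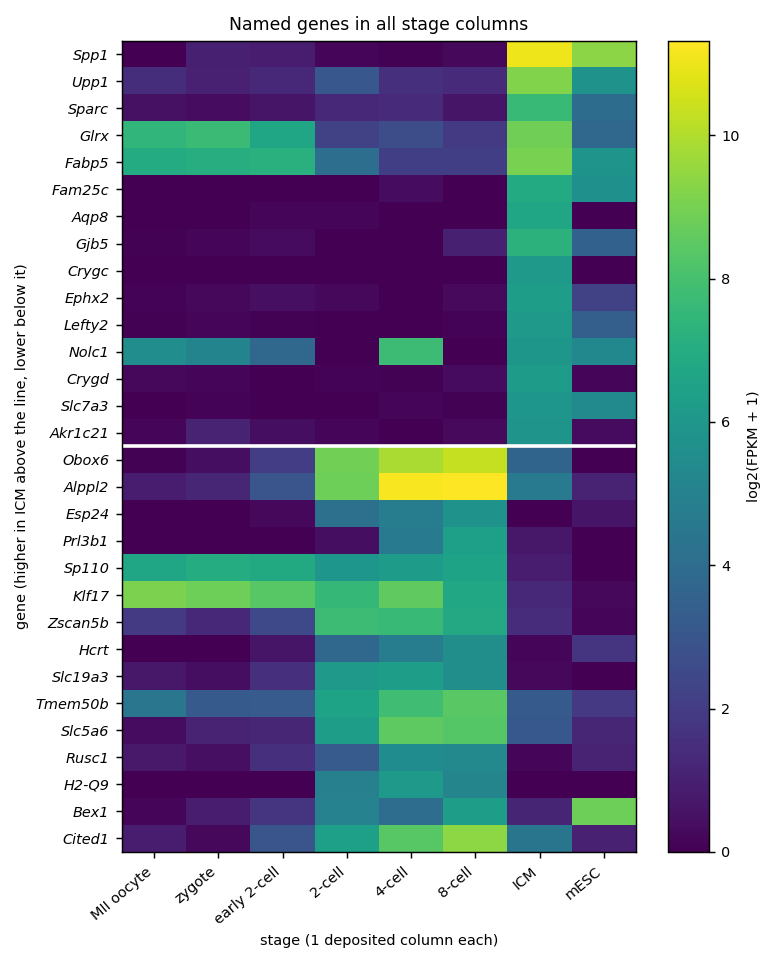
Level of the 15 genes with the largest upward and the 15 with the largest downward difference in each of the 8 stage columns, as log2(FPKM + 1) on a colour scale, 1 value per cell. Genes above the white line light up in the ICM column, Glrx, Fabp5 and Nolc1 also in oocytes; genes below it are bright at the 4-cell and 8-cell stages and dark in the ICM, and most of them are dark in oocytes and zygotes too.

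Promoters of 5 genes are shown because these genes mark both ends of the comparison: Spp1, Upp1 and the epiblast gene Nanog, higher in the ICM, and Alppl2 and Klf17, lower. Sequences and starts are RefSeq's. Each line gives the 250 bases before the outermost annotated start, 5′ to 3′ on the gene's strand, in build GRCm38.p6, with capitals on letters that match a motif searched for. The expression files used mm9, so these positions do not apply to them.

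Spp1 (chr5:104434861-104435110, plus strand): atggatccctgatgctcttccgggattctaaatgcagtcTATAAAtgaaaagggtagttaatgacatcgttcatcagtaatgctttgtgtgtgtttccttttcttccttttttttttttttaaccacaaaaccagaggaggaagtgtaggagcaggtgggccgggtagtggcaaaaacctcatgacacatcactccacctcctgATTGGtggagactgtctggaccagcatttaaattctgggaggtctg

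Upp1 (chr11:9117758-9118007, plus strand): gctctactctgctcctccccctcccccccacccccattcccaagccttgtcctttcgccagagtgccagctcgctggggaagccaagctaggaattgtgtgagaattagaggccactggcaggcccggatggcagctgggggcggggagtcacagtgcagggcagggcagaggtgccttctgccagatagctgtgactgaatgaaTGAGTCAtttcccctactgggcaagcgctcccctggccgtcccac

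Nanog (chr6:122707239-122707488, plus strand): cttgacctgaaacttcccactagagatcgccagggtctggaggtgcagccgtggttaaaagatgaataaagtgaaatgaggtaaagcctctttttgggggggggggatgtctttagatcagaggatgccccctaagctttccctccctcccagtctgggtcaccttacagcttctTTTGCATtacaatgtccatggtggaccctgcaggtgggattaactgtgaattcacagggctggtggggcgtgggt

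Alppl2 (chr1:87089929-87090178, minus strand): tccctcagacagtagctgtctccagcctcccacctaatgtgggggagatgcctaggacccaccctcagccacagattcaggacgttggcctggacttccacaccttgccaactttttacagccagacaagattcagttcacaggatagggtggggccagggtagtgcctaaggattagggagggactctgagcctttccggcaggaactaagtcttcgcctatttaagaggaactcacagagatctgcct

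Klf17 (chr4:117765667-117765916, minus strand): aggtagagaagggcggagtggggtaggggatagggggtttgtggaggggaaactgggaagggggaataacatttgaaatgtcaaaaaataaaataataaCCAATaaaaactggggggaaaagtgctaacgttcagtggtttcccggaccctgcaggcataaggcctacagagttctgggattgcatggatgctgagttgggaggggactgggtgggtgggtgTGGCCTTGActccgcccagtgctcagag

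The motifs, searched on both strands, were TCAAGGNCA (bound by Nr5a2 and its relatives), TTTGCAT (POU factors such as Oct4), TGANTCA (AP-1), AGATAA (bound by Gata4 and Gata6), ACATTCC (TEAD factors), TATAAA and CCAAT; none of them contains another. The Spp1 window held TATAAA at -211 and the reverse of CCAAT at -46. The Upp1 window held TGAGTCA at -45, and the Nanog window TTTGCAT at -75. The Klf17 window held TGGCCTTGA, the reverse complement of an Nr5a2-type match, at -28, and CCAAT at -151. The Alppl2 window held none of these letters.

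The shares of promoters with each motif were counted over all genes. Of 27025 RefSeq promoters, 5033 belonged to genes of the comparison, 1366 of them to genes higher in the ICM and 1078 to lower ones. TCAAGGNCA was in 1.37% of all promoters, 1.05% of those in the comparison, 1.02% of the higher and 1.58% of the lower ones. TTTGCAT was in 4.07%, 2.52%, 3.15% and 2.5% in the same order. CCAAT was the most common, in 34.5%, 37.9%, 39.9% and 34.9%. TGANTCA was in 6.85%, 3.78%, 4.69% and 4.27%, and AGATAA in 10.2%, 5.66%, 6.52% and 5.94%. ACATTCC was in 3.23%, 2.09%, 2.2% and 1.95% and TATAAA in 13%, 6.16%, 5.86% and 6.31%. Every motif but CCAAT was less common in promoters of the comparison than in all promoters. These shares are descriptions of letters, with no test.

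Levels at the other stages placed both sets of genes. Of the 1837 genes higher in the ICM, 1049 (57.1%) had their highest value of the 8 columns there, against 1690 of all 6611 (25.6%). The rule favours this, since no higher gene can peak at the 8-cell stage and no lower gene in the ICM. Under 1 FPKM in every stage before the ICM were 148 of the higher genes (8.06%), which by the rule are all such genes of the comparison. A set of 329 (17.9%) had 5 FPKM or more in MII oocytes but less at both the 4-cell and the 8-cell stage, as Fabp5 did; no lower gene can be in such a set, since it entered the comparison through the ICM. Of the 1447 genes lower in the ICM, 497 (34.3%) peaked at the 8-cell stage, against 932 of all (14.1%), which the rule favours in the same way. Counted separately, so that a gene can be in both counts, 338 (23.4%) were under 1 FPKM in MII oocytes and reached 5 FPKM at the 2-cell stage, against 773 of all 6611 genes (11.7%) and 86 of the higher ones (4.68%). In mESC, 1179 of the higher genes (64.2%) had 5 FPKM or more, against 552 of the lower ones (38.1%) and 4088 of all (61.8%).

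In every list from here on, shares are read beside the 27.8% of all genes that were higher and the 21.9% that were lower. Of 29 pluripotency and epiblast genes in the comparison, 15 were higher (51.7%, against 27.8% of all) and 5 lower (17.2%, against 21.9%). Their median difference was 1.18, against 0.10 for all genes. Between the control groups 5 of the 29 were higher in blastocysts without overlap (17.2%, against 19.4% of all genes in the comparison) and 11 lower (37.9%, against 32.7%). Without replicate 2 these were 6 (20.7%, against 19.9%) and 13 (44.8%, against 48.8%). Nanog, a homeodomain factor of the epiblast, had 6.59 FPKM at the 8-cell stage and 288 FPKM in the ICM (5.25). Nanog was at 11.5, 12.3, 6.14 and 1.81 FPKM in the 8-cell controls and at 16.01, 59.6 and 19.1 FPKM in the blastocyst controls. The blastocyst libraries thus all lay above the 8-cell ones, by less than the columns did. Sox2, the partner of Oct4 in the epiblast, had 0.11 and 8.03 FPKM (3.02). Sox2 was at 0.15 FPKM in 1 8-cell control and at 0 in the other 3, and at 1.31, 1.31 and 0.48 FPKM in the blastocyst controls. Dppa5a, an RNA-binding protein of pluripotent cells with near-identical copies, was the most abundant gene of the ICM column, at 12622 FPKM against 1617 FPKM (2.96).

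Pou5f1, which encodes Oct4, had 64.4 and 149 FPKM (1.20). The control libraries ran the other way for Pou5f1, with 191, 172, 88.8 and 135 FPKM in 8-cell embryos and 27.1, 46.9 and 19.03 FPKM in whole blastocysts, again without overlap. Zfp42 (Rex1) went from 20.2 to 156 FPKM (2.88), the Oct4 target Utf1 from 12.2 to 183 FPKM (3.80) and the TGF-beta family ligand Gdf3 from 1.54 to 88.4 FPKM (5.14). The naive pluripotency factor Tfcp2l1 went from 6.48 to 49.96 FPKM (2.77) and Klf4 from 11.7 to 27.9 FPKM (1.19). Not every member moved this way. Esrrb lay at 10.8 and 12.8 FPKM (0.24), within 1. Besides Klf17, the 4 lower members were Nr5a2 (38.4 to 4.65 FPKM), Fbxo15 (1802 to 381 FPKM), Spic (512 to 160 FPKM) and Dppa4 (285 to 138 FPKM), and the control libraries of each were lower in blastocysts without overlap.

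Primitive endoderm genes were mostly higher in the ICM. Of 30 such genes, 17 were in the comparison, 11 of them higher (64.7%) and 1 lower (5.88%), with a median of 3.03. The median was 1.73 without genes listed at 0, 1.94 with a filter at 1 FPKM, 1.56 with no filter and 1.42 with a pseudocount of 5. Between the control groups 11 of the 17 were higher (64.7%, against 19.4% of all) and 1 lower (5.88%, against 32.7%) in blastocysts without overlap. The genes that differed most encode matrix, transport and signalling proteins: Sparc, Aqp8, the proteoglycan Srgn (1.5 to 37.7 FPKM), the collagen chaperone Serpinh1 (0 to 14.2 FPKM), the laminin chain Lama1 (0 to 8.40 FPKM) and the receptor Pdgfra (0.87 to 16.2 FPKM, 3.20). Serpinh1 was at 0 in all 4 8-cell controls and at 5.60, 2.33 and 10.6 FPKM in the blastocyst controls. Pdgfra was at 0 to 0.81 FPKM in the 8-cell controls and at 1.53, 0.89 and 1.57 FPKM in the blastocyst controls, above them but low.

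The factors Gata6 and Gata4 of the lineage lay within 1. Gata6 had 17.0 and 16.4 FPKM (-0.05) and Gata4 8.04 and 5.44 FPKM (-0.49), and the control libraries of each overlapped. Gata6 was at 4.27 FPKM at the 4-cell stage, while Gata4 was highest at the 2-cell and 4-cell stages, at 17.6 and 17.7 FPKM. The endoderm factors Sox17 (0 to 1.35 FPKM, 1.23), Foxa2 (0 to 1.62 FPKM, 1.39) and Hnf4a (0 to 3.73 FPKM, 2.24) were above 0 in the ICM but under the 5 FPKM limit. Sox17 was at 0 in all 4 8-cell controls and at 0.63, 0.38 and 0.95 FPKM in the blastocyst controls. Cited1 was the 1 lower member.

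Trophectoderm genes were set beside the label of the ICM column, since immunosurgery removes the outer cells. Gata3 was at 7.43 FPKM in the ICM (4.02 at the 8-cell stage) and at 79.6, 132 and 123 FPKM in the whole blastocyst controls. Cdx2 was at 1.61 FPKM in the ICM and at 10.6, 21.5 and 13.8 FPKM in those controls. Eomes was at 4.19 FPKM in the ICM and at 10.7, 39.9 and 36.7 FPKM in the blastocyst controls. The keratin gene Krt8 had 62.7 FPKM in the ICM, between the 1.33 FPKM of the 8-cell column and the 629, 732 and 690 FPKM of the blastocyst controls (4.77; Krt8 has a near-identical copy). These 4 markers were thus lower in the ICM column than in whole blastocysts from the other table. They were above the 8-cell column, Gata3 and Cdx2 by less than 1, and Cdx2 and Eomes were under the 5 FPKM limit. Other factors of the list, Hand1, Tfap2c and Tead4, were below the 8-cell column. Tfap2c was at 7.63 FPKM in the ICM and at 8.26, 28.4 and 24.1 FPKM in the blastocyst controls.

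Of 30 trophectoderm genes, 18 were in the comparison, 10 higher (55.6%, against 27.8% of all) and 6 lower (33.3%, against 21.9%). The median was 2.04 (1.33 with a pseudocount of 5, 0.93 with no filter). Their summed level over the list was 645 FPKM at the 8-cell stage and 689 FPKM in the ICM, and 699 to 890 FPKM in the 8-cell controls and 5377 to 8074 FPKM in the blastocyst controls; Krt19, Ascl2 and Esx1 were at 0 in the ICM column. The part of residual trophectoderm in the differences of the higher members was not tested. Those members included the actin bundler Lcp1 (0.54 to 29.7 FPKM), the fatty acid carrier Fabp3 (9.57 to 175 FPKM, near-identical copy), the inhibitor of DNA binding Id2 (0.92 to 23.8 FPKM) and Krt18 (9.89 to 86.1 FPKM). The lower members were the transcription factors Hand1 (102 to 7.92 FPKM, -3.53), Tfap2c (46.3 to 7.63 FPKM, -2.46) and Tead4 (42.6 to 7.20 FPKM, -2.41), with Cldn6, Sfn and Cldn4. Hand1, Tfap2c and Tead4 were also lower in whole control blastocysts than in control 8-cell embryos without overlap.

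**Figure D3:**
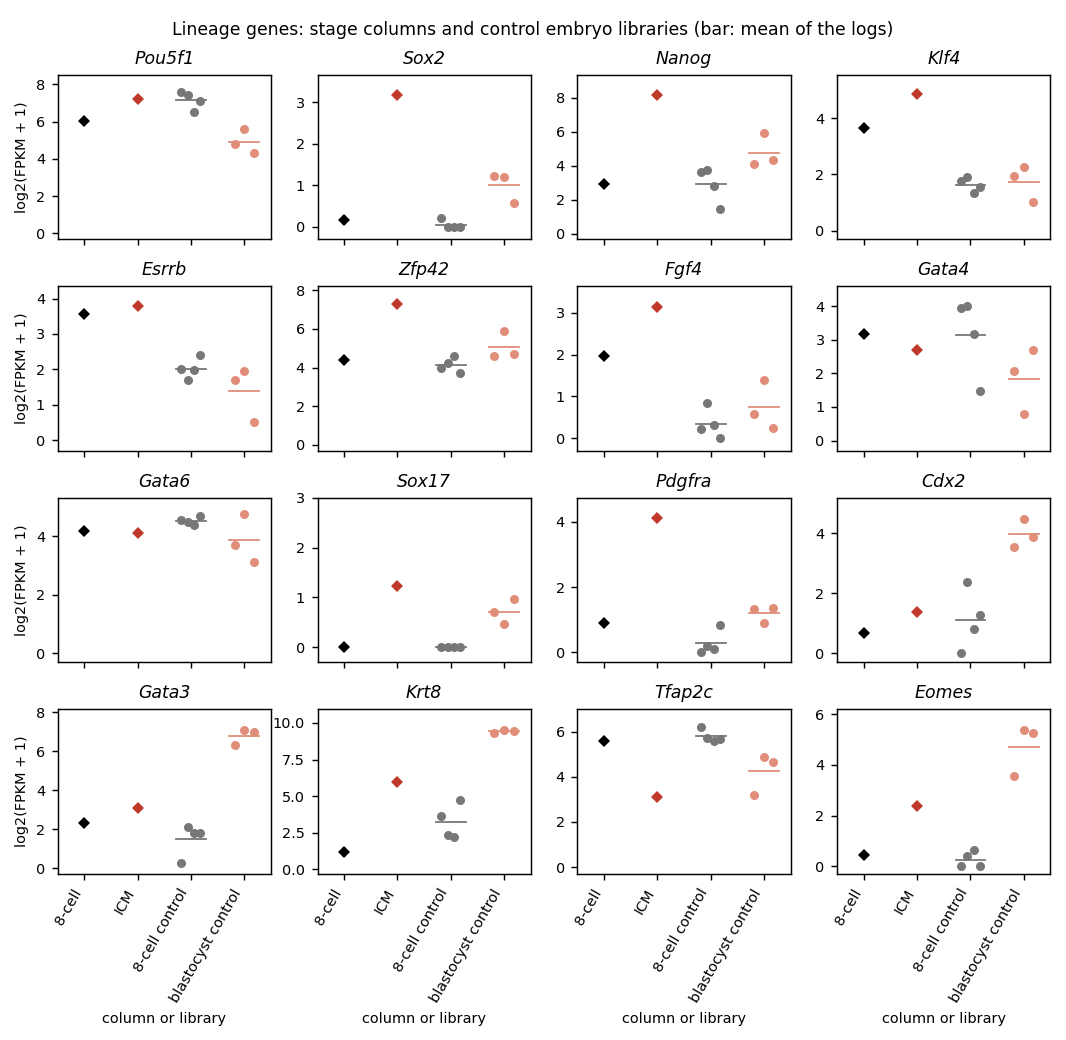
Level as log2(FPKM + 1) of 16 lineage genes in the 8-cell and ICM columns (diamonds, 1 deposited value each) and in the 4 8-cell and 3 whole-blastocyst control libraries (circles, 1 per library, with the mean of the log values as a bar). The columns and the 2 sets of libraries come from tables processed separately; Gata3, Cdx2, Eomes and Krt8 stand higher in whole blastocysts than in the ICM, and Sox2, Nanog and Pdgfra higher in the ICM.

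Of 31 genes of the Nodal, activin and BMP pathways 10 were in the comparison. Of these, 6 were higher (60%, against 27.8% of all) and 1 lower (10%, against 21.9%), with a median of 3.67. The median rests on the 5 FPKM limit: it was 0.71 with a filter at 1 FPKM and 0.20 with none. In this pathway ligands of the TGF-beta family bind paired receptors that phosphorylate Smad proteins. The ligand Bmp4 was at 0 and 30.2 FPKM (4.96), the Nodal co-receptor Tdgf1 at 44.2 and 563 FPKM (3.64, near-identical copy), and the Smad partner Foxh1 at 1.20 and 50.5 FPKM (4.55). Smad2 (6.02 and 5.54 FPKM) and Smad4 (4.02 and 5.89 FPKM) differed by less than 1, and the activin inhibitor Fstl3 was lower (28.7 to 5.65 FPKM). In the control libraries Tdgf1 ran the other way, at 50.5, 49.5, 39.97 and 93.9 FPKM in 8-cell embryos and 10.2, 12.7 and 3.71 FPKM in blastocysts. Lefty2 and Foxh1 overlapped there.

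FGF and ERK genes split. Of 18, 6 were higher (33.3%, against 27.8% of all) and 5 lower (27.8%, against 21.9%). The median was 0.46 (0.17 with a filter at 10 FPKM). The ligands Fgf4 (2.93 to 7.89 FPKM, 1.18) and Fgf10 (0.37 to 26.7 FPKM, 4.34) and the ERK-induced genes Etv5 (2.37 to 48.7 FPKM, 3.89, near-identical copy), Fos (0 to 9.65 FPKM), Dusp4 (0.14 to 6.93 FPKM) and Spry2 (39.0 to 161 FPKM) were higher. The receptor Fgfr4 (5.79 to 0.21 FPKM), the adaptors Grb2 (24.5 to 5.55 FPKM) and Sos1 (9.78 to 1.46 FPKM), the kinase Map2k2 (18.1 to 4.41 FPKM) and Myc (40.6 to 14.9 FPKM) were lower. The receptors Fgfr1 and Fgfr2 differed by 0.43 and -0.07. Among 12 genes of the LIF and STAT3 pathway, 6 were higher (50%, against 27.8% of all) and 3 lower (25%, against 21.9%). The median was 0.72 (0.10 with no filter, 1.19 with a filter at 10 FPKM). Both receptor chains, Lifr (0.07 to 7.11 FPKM) and Il6st (0.05 to 6.59 FPKM), and Stat3 (3.44 to 15.8 FPKM) were higher, while the feedback inhibitor Socs3 was lower (26.0 to 8.59 FPKM).

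Genes of the mitochondrial respiratory chain and ATP synthase were higher in the ICM or within 1 throughout. All 76 listed genes were in the comparison, 43 were higher (56.6%, against 27.8% of all genes) and none was lower, with a median of 1.12. Cox7b, of cytochrome oxidase, had 26.5 and 321 FPKM (3.55). Cox7b was at 12.3, 14.6, 13.1 and 14.5 FPKM in the 8-cell controls and at 51.3, 114 and 54.3 FPKM in the blastocyst controls. Ndufa6, of complex I, had 32.7 and 336 FPKM (3.32), and Sdhd, of complex II, 32.8 and 248 FPKM (2.88). In the control libraries 47 of the 76 genes were higher in all 3 blastocyst libraries than in all 4 8-cell libraries, against 19.4% of genes in the comparison, and none was lower, against 32.7%. Without replicate 2 of the blastocyst controls, 47 were higher and 4 lower, against 19.9% and 48.8%.

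Of 17 genes for glucose uptake and glycolysis, 14 were higher (82.4%) and 2 lower (11.8%), with a median of 1.94 (1.29 with a pseudocount of 5). The glucose transporter Slc2a1 had 0.79 and 31.1 FPKM (4.16), lactate dehydrogenase Ldha 1.68 and 88.2 FPKM (5.06), and the pyruvate kinase Pkm 6.02 and 189 FPKM (4.76). The largest value was that of Gapdh, 1.796 and 113 FPKM (5.35), but Gapdh and Pkm have near-identical copies. The lower members were the other forms of 2 enzymes, Ldhb (16.7 to 1.57 FPKM) and hexokinase Hk1 (9.38 to 0.99 FPKM), while Hk2 was higher (1.15 to 5.56 FPKM). In the control libraries 6 genes (35.3%, against 19.4% of all), Slc2a1 among them, were higher in blastocysts without overlap and 3 lower (17.6%, against 32.7%). Ldha overlapped, with 3.71 to 21.9 FPKM in 8-cell embryos and 2.99 to 20.6 FPKM in blastocysts. Cholesterol synthesis genes had no common direction, with 6 of 16 higher (37.5%), 5 lower (31.2%) and a median of 0.05, whose sign turned with the scaling. The squalene synthase Fdft1 was the lowest (114 to 11.6 FPKM, -3.18).

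**Figure D4:**
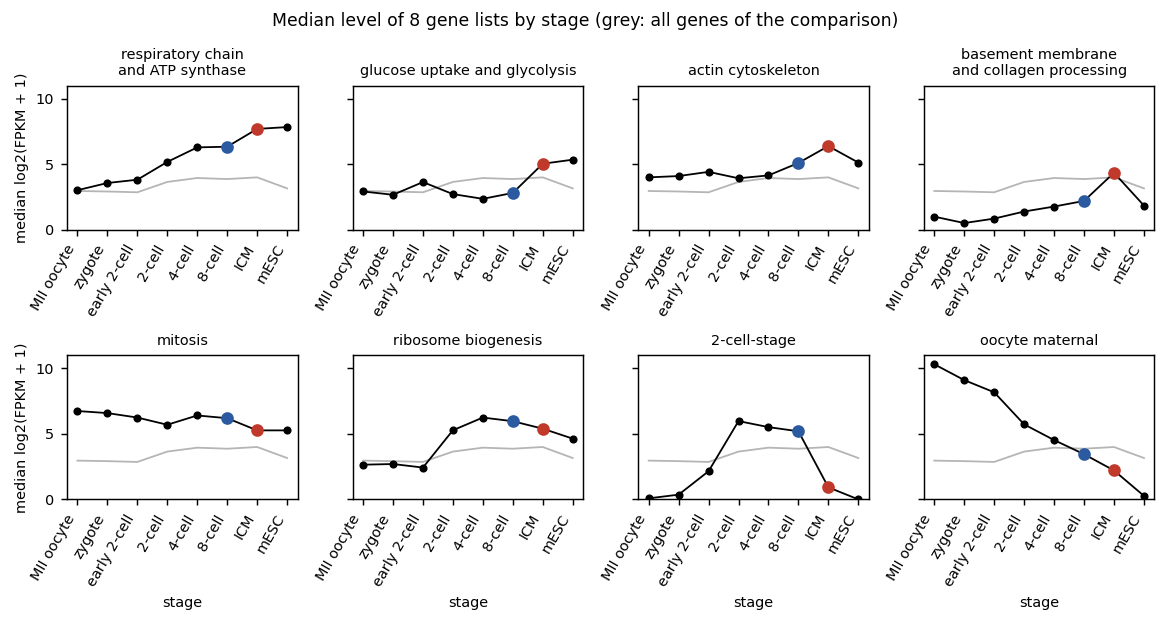
Median log2(FPKM + 1) of 8 gene lists in each of the 8 stage columns (black; 8-cell in blue, ICM in red), with the median of all 6611 genes in grey; points are joined only to guide the eye. The respiratory chain list lies at 6.34 in the 8-cell column and 7.70 in the ICM, the 2-cell-stage list at 5.20 and 0.92.

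The median level of the respiratory chain list was 3.02 on the log2(FPKM + 1) scale in MII oocytes, 5.18 at the 2-cell stage, 6.34 at the 8-cell stage, 7.70 in the ICM and 7.84 in mESC. The glycolysis list lay between 2.36 and 3.64 from MII oocyte to 8-cell and at 5.04 in the ICM and 5.35 in mESC. For basement membrane genes the ICM stood out from both neighbours, with 2.2 at the 8-cell stage, 4.35 in the ICM and 1.85 in mESC. Genes entered these lists only if they reached 5 FPKM in the 8-cell or ICM column, so their levels at other stages are not those of the whole lists.

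None of 78 cytosolic ribosomal protein genes was higher and 7 were lower (8.97%), with a median of -0.16, although 72 of them have near-identical copies. Fau was the lowest, at 472 and 84.0 FPKM (-2.48). Among the control libraries 48 of the 78 were lower in blastocysts without overlap (61.5%, against 32.7% of all) and none higher; without replicate 2 it was 70 (89.7%, against 48.8%). Ribosome biogenesis genes, which process ribosomal RNA in the nucleolus, were lower in 12 of 43 cases (27.9%) with a median of -0.59; the 1 higher gene was Nolc1, with its listed 0. The RNA polymerase I subunit Polr1e (33.8 to 6.46 FPKM), Heatr1 (23.1 to 5.85 FPKM) and Wdr43 (193 to 56.0 FPKM) were the lowest. In the control libraries 38 of the 43 were lower in blastocysts without overlap (88.4%, against 32.7% of all), and 42 without replicate 2 (97.7%, against 48.8%).

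Proteasome genes had a median of 0.39, with 6 of 44 higher (13.6%) and 1 lower (2.27%). In the control libraries 3 were higher (6.82%, against 19.4% of all) and 11 lower (25%, against 32.7%). Without replicate 2, 29 were lower (65.9%, against 48.8%). The genes higher in the ICM included the immunoproteasome subunit Psmb9 (0.34 to 8.10 FPKM) and the activator Psme2 (1.02 to 13.7 FPKM). The lower one, Psmb10 (7.66 to 2.43 FPKM), is an immunoproteasome subunit too. Of 42 lysosomal genes, 17 were lower (40.5%, against 21.9% of all) and 9 higher (21.4%, against 27.8%), with a median of -0.23. Cathepsins were among the lower: Ctsh (28.02 to 0.85 FPKM), Ctsz (195 to 27.99 FPKM), Ctsc (851 to 128 FPKM), Ctsa, Ctsb and Ctsl, and with them Lamp2 (265 to 61.0 FPKM) and the lysosomal regulator Tfeb (19.05 to 2.58 FPKM). The higher ones included the peptidase Tpp1 (0.02 to 28.9 FPKM, 4.87), the thioesterase Ppt1 (1.77 to 22.4 FPKM) and the proton pump subunits Atp6v1f, Atp6v1g1 and Atp6v1h.

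Of 34 mitosis genes, 13 were lower (38.2%) and 1 higher (2.94%), with a median of -0.75. Among the controls 15 were lower in blastocysts without overlap (44.1%, against 32.7% of all) and 2 higher (5.88%, against 19.4%). Without replicate 2 the lower ones were 25 (73.5%, against 48.8%). Cyclin B1 (Ccnb1) had 815 and 128 FPKM (-2.67, near-identical copy), Prc1, which bundles the central spindle, 158 and 23.9 FPKM (-2.67), and Cdc20, which activates the anaphase-promoting complex, 434 and 73.3 FPKM (-2.55). Cdc20 was at 448, 308, 344 and 344 FPKM in the 8-cell controls and at 115, 151 and 88.7 FPKM in the blastocyst controls. The 1 higher gene was securin, Pttg1 (194 to 573 FPKM, 1.56), which ran the other way in the controls. Of 45 DNA replication genes, 16 were higher (35.6%) and 4 lower (8.89%), with a median of 0.51. Gins2, of the replicative helicase, had 3.69 and 60.3 FPKM (3.71), and Rpa1, which binds single strands, 8.06 and 50.5 FPKM (2.51). Cdc45, also of the helicase, was lower (115 to 34.9 FPKM, -1.70). In the controls only 3 of the 45 (6.67%, against 19.4% of all), Gins2 among them, were higher in blastocysts without overlap. Lower were 15 (33.3%, against 32.7% of all), or 27 (60%, against 48.8%) without replicate 2.

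Genes of DNA methylation were higher in 6 of 12 cases (50%, against 27.8% of all) and lower in 1 (8.33%, against 21.9%), with a median of 0.98. Uhrf1, which brings the maintenance methyltransferase to replicated DNA, had 3.26 and 68.6 FPKM (4.03, near-identical copy). Its partner Dnmt1 had 4.12 and 5.18 FPKM (0.27). The oxidases Tet1 (7.38 to 16.1 FPKM) and Tet2 (1.43 to 9.86 FPKM) and the de novo enzyme Dnmt3b (2.92 to 9.99 FPKM) were higher, and Dppa3, which shields maternal methylation, was lower (2527 to 1134 FPKM, -1.16). Of 11 imprinted genes 1 was higher (9.09%, against 27.8% of all), the transporter Slc38a4 (1.94 to 34.0 FPKM). Lower were 2 (18.2%, against 21.9%), Igf2r (17.8 to 3.17 FPKM) and Impact (22.6 to 4.97 FPKM). The median was -0.07. Among 13 genes of the p53 response, 3 were higher (23.1%, against 27.8% of all) and 4 lower (30.8%, against 21.9%), with a median of -0.56. The cell cycle inhibitor Cdkn1a was lower (23.3 to 2.42 FPKM, -2.83), the death gene Pmaip1 higher (0.54 to 23.2 FPKM, 3.98), and Trp53 itself within 1 (60.4 and 92.5 FPKM).

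Of 30 actin cytoskeleton genes, 20 were higher (66.7%) and none lower, with a median of 1.38. The actin genes Actb (185 to 1256 FPKM, 2.76) and Actg1 (153 to 1253 FPKM, 3.03), the actin-sequestering Tmsb4x (3.10 to 145 FPKM, 5.16) and the membrane linker Ezr (1.07 to 49.0 FPKM, 4.60) led the list. Tmsb4x was at 1.83 to 3.17 FPKM in the 8-cell controls and at 3156, 3667 and 1541 FPKM in the whole blastocyst controls, far above the ICM column. In the controls 24 of the 30 were higher in blastocysts without overlap (80%, against 19.4% of all) and none was lower (against 32.7%). Without replicate 2 these were 24 (80%, against 19.9%) and 1 (3.33%, against 48.8%). Of 16 genes for basement membrane and collagen processing, 13 were higher (81.2%) and none lower, with a median of 2.48 (1.40 with a pseudocount of 5, 1.32 with no filter). In the control libraries 9 were higher (56.2%, against 19.4% of all) and 3 lower (18.8%, against 32.7%) without overlap. The genes higher in the ICM included the laminin chains Lama1, Lamb1 (3.15 to 30.5 FPKM) and Lamc1 (0.69 to 15.7 FPKM), Col4a1 (0.15 to 8.34 FPKM) and the lysyl hydroxylase Plod2 (0.01 to 29.5 FPKM, 4.92).

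Junction and polarity genes were higher in 12 of 27 cases (44.4%, against 27.8% of all) and lower in 5 (18.5%, against 21.9%), with a median of 0.80. E-cadherin, Cdh1, had 23.8 and 42.3 FPKM (0.80), while beta-catenin, Ctnnb1, was higher (22.99 to 70.1 FPKM, 1.57), as were the adhesion molecule Epcam (8.24 to 69.4 FPKM), the connexin Gjb5 and the desmoglein Dsg2 (0.05 to 8.28 FPKM). The lower genes were mostly of the tight junction: Cldn6 (26.9 to 7.13 FPKM), F11r (146 to 42.4 FPKM), Ocln (14.1 to 5.01 FPKM) and Cldn4 (22.1 to 9.31 FPKM), with the tumour suppressor Nf2 (19.5 to 6.51 FPKM). Another claudin, Cldn3, was higher (0 to 8.06 FPKM). Of 11 galectin, annexin and S100 genes 8 were higher (72.7%, against 27.8% of all) and 1 lower (9.09%, against 21.9%). The median was 2.15 (0.99 with no filter), and Lgals1 (0.51 to 50.3 FPKM, 5.08) and S100a10 (2.70 to 80.4 FPKM, 4.46) led. Of 7 aquaporin and sodium pump genes, 3 were higher (42.9%, against 27.8% of all), namely Aqp8, Aqp3 and Atp1b1. Lower were 3 (42.9%, against 21.9%), namely Aqp9, Aqp11 and Atp1b3. The median was -0.63, and its sign turned in an alternative setting.

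The 2-cell-stage list was meant for genes that turn on with the embryo's first transcription. Sp110 of this list was already at 99.1 FPKM in MII oocytes and at 59.8 FPKM at the 2-cell stage. Of 13 such genes, 10 were lower (76.9%, against 21.9% of all) and 1 higher (7.69%, against 27.8%), with a median of -2.71. Near-identical copies exist for 8 of the 13, and without these genes the median was -1.67. With a pseudocount of 5 it was -1.63 and with no filter -1.08. Besides Obox6 and Sp110 they included the Tdpoz genes (Tdpoz5, 35.9 to 0.59 FPKM) and Arg2 (11.8 to 0.95 FPKM). Of 13 oocyte genes, 8 were lower (61.5%) and 3 higher (23.1%), with a median of -1.31 (-0.53 with no filter). Padi6 (14.3 to 0.62 FPKM), Gdf9 (11.2 to 0.82 FPKM) and Npm2 (9.79 to 0.66 FPKM) were the lowest. The 3 higher ones were Tcl1 (3.38 to 138 FPKM, 4.99), which activates Akt kinase, and Ooep (2.66 to 85.8 FPKM, 4.57) and Khdc3 (109 to 611 FPKM, 2.47) of the subcortical maternal complex. Ooep was at 0.99 to 2.92 FPKM in the 8-cell controls and at 18.3, 43.3 and 13.5 FPKM in the blastocyst controls.

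Metallothionein and zinc transport genes were lower in 6 of 10 cases (60%, against 21.9% of all) and higher in 1 (10%, against 27.8%). The median was -1.21 (-0.75 with a pseudocount of 5). Mt1 had 1292 and 182 FPKM (-2.82) and Mt2 755 and 150 FPKM (-2.32). Mt1 ran the other way in the controls, at 1107, 1032, 1563 and 1602 FPKM in 8-cell embryos and 2849, 4280.4 and 2318 FPKM in blastocysts. Of 8 genes of class I antigen presentation, 2 were higher (25%, against 27.8% of all) and 2 lower (25%, against 21.9%), with a median of 0.31. B2m had 27.8 and 6.72 FPKM (-1.90). Of 16 housekeeping genes 6 were higher (37.5%, against 27.8% of all) and 4 lower (25%, against 21.9%). The median was 0.53 (0.31 without near-identical copies). Hprt (1448 to 636 FPKM) and Tbp (46.5 to 17.6 FPKM) were lower and Ywhaz (81.7 to 406 FPKM) was higher, so no gene of this list set a common level. Of 20 markers of cumulus, blood and fibroblast cells only Amhr2, Pecam1 and Cd68 reached 5 FPKM, and 1, Amhr2, was lower; the list summed to 57.0 FPKM at the 8-cell stage and 41.8 FPKM in the ICM, and 11 markers, Ptprc and Lyz2 among them, were at 0 in the ICM column.

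**Figure D5:**
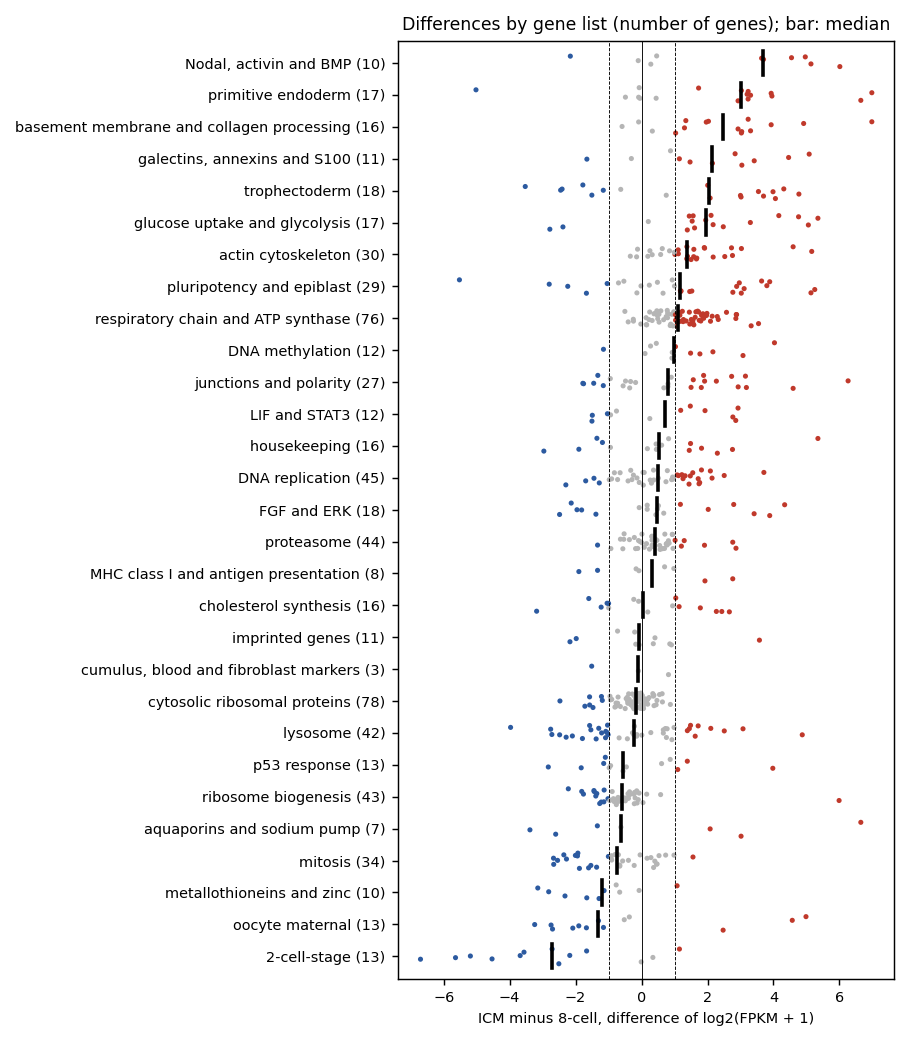
Difference of log2(FPKM + 1), ICM minus 8-cell, for each gene of 29 lists (1 point per gene, number of genes in brackets, black bar at the list's median; red, higher by 1 or more; blue, lower by 1 or more; grey, within 1). At the 5 FPKM limit medians run from 3.67 for Nodal, activin and BMP genes (0.20 with no filter) to -2.71 for 2-cell-stage genes (-1.08 with no filter), and the respiratory chain, actin and basement membrane lists hold no blue point.

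The control libraries gave the 1 replicated view of these stages, with whole blastocysts in place of the ICM. Of 6545 genes of the comparison found in both control tables, all 3 blastocyst libraries lay above all 4 8-cell libraries for 1270 (19.4%) and below them for 2141 (32.7%). Without replicate 2 of the blastocysts, which stood apart, these counts were 1305 (19.9%) and 3195 (48.8%). Leaving out a library can only keep or raise such counts, by construction. Leaving out replicate 1 or 3 instead was not run. Of the 1823 genes higher in the ICM that were in these tables, 940 were higher in control blastocysts without overlap (964 without replicate 2) and 829 overlapped. Of the 1407 lower ones, 1010 were lower without overlap (1173 without replicate 2) and 372 overlapped. Among the 15 named higher genes 9 lay the same way without overlap, 5 overlapped and Nolc1 lay the other way. Among the 15 named lower genes 13 lay the same way, Slc19a3 overlapped and Bex1 lay the other way. The 13 include H2-Q9, whose order rests on an 8-cell control value of 0.00018 FPKM.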

How the data were processed

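RNA was measured in 8-cell embryos (2 samples) and ICM (3 samples), with 4 8-cell and 3 blastocyst control libraries beside them, among 32 samples in all. The authors deposited FPKM, 1 column per stage in 1 table and 1 column per library in the control tables. The submitters' processing notes name CASAVA 1.8 for base calling. According to them reads were aligned to mm9 with STAR 2.4.0 and FPKM were made with Cufflinks 2.2.1 for the stages and blastocysts compared; no tool is named for the 8-cell control FPKM. How the samples of a stage were joined into 1 column is not given in the sources used here, nor are read totals, so precision cannot be stated. The control tables were processed separately, and levels were set side by side across them without a test.

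Differences of log2(FPKM + 1) were computed over genes with 5 FPKM or more in either column, with 1 as the step that counts as higher or lower, and again after scaling the ICM column by 0.9934, the inverse of the median ratio of genes at 5 FPKM or more in both. Alternatives were other scalings, pseudocounts of 0.1 and 5, other filters, a step of 2, and leaving out near-identical copies; leaving out small RNA genes, listed zeros or blastocyst control 2 was added after seeing the data. Genes named were the 15 furthest apart each way (unnamed loci and small RNA genes passed over), a fixed set of lineage genes, the 10 most abundant genes of each column and members of 29 hand-written lists. The genes, lists and promoter motifs were chosen with earlier results of these data known, and the motifs with the printed promoters seen. Near-identical copies (95% identity over 50% of the coding sequence) were searched with minimap2 2.31 in GENCODE M21, where 6326 of 6611 genes (95.7%) were found by symbol; 893 had one, and their values are uncertain. Promoters were the 250 bases before the outermost RefSeq start (GRCm38.p6). Strand was checked against GENCODE transcripts of the same gene, where 3990 of the 5033 promoters of the comparison (79.3%) matched. The rest did not match and were kept. The scripts ran on Python 3.11.15 with pandas 2.3.3, numpy 2.4.6 and matplotlib 3.10.9. The difference and scaling steps were tested on simulated data.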

Additional observations from a re-analysis of the deposited data

Results flagged for a closer look

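Among the named genes, 4 were flagged for 1 of the 4 8-cell control libraries far from the other 3 by Dixon's criterion, each time the highest. Genes with 1 library above 0 and the other 3 at 0, such as Fam25c, Crygd, Slc7a3 and Sox2, were not flagged. Chance alone flags about 1 in 20 groups. Ephx2 was at 2.37 FPKM in replicate 3, against 0.47 to 0.75 FPKM in the others. Esp24 was at 14.5 FPKM in replicate 3, against 1.52 to 3.57 FPKM, and Prl3b1 at 15.7 FPKM in replicate 3, against 1.08 to 2.90 FPKM. Tfap2c was at 72.3 FPKM in replicate 1, against 47.3 to 51.0 FPKM. For Esp24, Prl3b1 and Tfap2c all 4 libraries still lay above the 3 blastocyst control libraries.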

How the results depend on the processing

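With 1 column per stage, nothing here carries a replicate error, and depth is unknown. No paired analysis was possible because the replicates of each stage were deposited as 1 pooled column, and no replicate could be left out for the same reason. No list median of 1 or more in size and no named gene with a difference of that size changed sign under any alternative run. Over the alternatives with a step of 1, 1365 to 2707 genes were higher and 1002 to 1935 lower. A step of 2 left 832 higher and 527 lower. The median difference moved to -0.034 with upper quartile scaling, to 0.040 with equal totals without the 50 most abundant genes, to 0.16 with a filter at 1 FPKM and to 0 without a filter. With no filter or a filter at 1 FPKM, counts rose to 2707 and 1935 by construction, as more genes entered. The sign of the small medians of the aquaporin, cholesterol, imprinted and cumulus lists was not the same in every setting. Without replicate 2 of the blastocyst controls, genes lower in control blastocysts without overlap went from 2141 to 3195 and higher ones from 1270 to 1305. With a library left out, such counts cannot fall, by construction. Cdx2 passed a difference of 1 with a pseudocount of 0.1, and Eomes, Fgf4, Klf4 and Sox17 fell under it with a pseudocount of 5; the cause was not tested.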

Other observations

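Genes sharing the start of a symbol formed further groups, chosen after their values were seen. These groups can repeat genes of the lists above, as Polr does with Polr1e. Of 34 histone genes (Hist), which package DNA, 21 were higher in the ICM (61.8%, against 27.8% of all genes) and none lower. Their median difference was 1.47. Near-identical copies exist for 32 of the 34, so their values are uncertain. How far libraries of polyadenylated RNA measure these histone genes was not tested either. Of 29 proteins of the small mitochondrial ribosome subunit (Mrps), 8 were higher (27.6%) and none lower, with a median of 0.64. Of 48 of the large subunit (Mrpl), 11 were higher (22.9%) and 1 lower (2.08%), with a median of 0.49. The higher shares of both were thus no larger than the 27.8% of all genes, while the lower shares were under the 21.9% of all genes. Motor proteins of the kinesin family (Kif) were lower in 9 of 15 cases (60%, against 21.9% of all genes) and higher in none, with a median of -1.29. Of 17 Taf genes, most of them for the TFIID complex, 10 were lower (58.8%) and none higher, with a median of -1.16. Of 27 RNA polymerase genes (Polr), 10 were lower (37%) and none higher, with a median of -0.72. Of 26 Mediator genes (Med), 9 were lower (34.6%) and 1 higher (3.85%), with a median of -0.58. General transcription factors (Gtf) were lower in 5 of 20 cases (25%, against 21.9% of all genes) and higher in 2, with a median of -0.30. Translation initiation factors (Eif) were lower in 14 of 46 cases (30.4%) and higher in 3 (6.52%). Ubiquitin-specific proteases (Usp) were lower in 12 of 25 (48%) and higher in 3 (12%). Zinc finger genes (Zfp) were lower in 35 of 101 cases (34.7%) and higher in 18 (17.8%).

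Of 18 Snora genes 16 were lower (88.9%, against 21.9% of all genes) and none higher. The libraries were made from polyadenylated RNA, and how far they measure small RNA genes was not tested, so these values are uncertain. Of all 31 small RNA genes of the comparison 26 were lower and 2 higher, 24 of them listed at 0 in the ICM. Snord22 was an exception, with 50.7 FPKM at the 8-cell stage and 2011 FPKM in the ICM.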
